A study of Mus musculus with 6 samples.

Results

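Gal, Ache, Nptx2, Prmt8 and Slc35d3, 5 genes with known roles in nerve cells, read higher in mouse embryonic cardiomyocytes without Yap than in cells with 1 working Yap1 allele. They are 5 of 19938 genes that a single-gene probe set named on the array, and all 5 were among the 13632 genes bright enough to be tested. They were picked because they were among the largest rises in this comparison, so their difference between the groups is described below and carries no test. The 6 arrays held RNA from sorted heart muscle cells at E12.5, 3 arrays from Yap HET and 3 from Yap KO embryos, which the submitters call biological replicates. Both groups came from matings of TNTCre (Cre recombinase driven by the cardiac troponin T promoter), floxed Yap and R26 mTmG mice, and in both the sorted cells were the green ones, in which Cre had acted on the reporter. The Yap HET controls had thus also been exposed to Cre and had lost 1 Yap1 copy, so a wild-type level is not measured. The labels do not say which embryos or litters the replicates came from. The arrays are called HET 1 to 3 and KO 1 to 3 below, after their replicate numbers.

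The products of these genes have known roles in the nervous system, and that of Slc35d3 also in platelets. Gal encodes galanin, a secreted neuropeptide that acts on 3 G-protein-coupled receptors. Ache encodes acetylcholinesterase, which splits acetylcholine at cholinergic synapses and ends its action, including the vagal signal that slows the heart. Nptx2 encodes a secreted neuronal pentraxin that gathers AMPA-type glutamate receptors at excitatory synapses. Prmt8 encodes a brain-enriched arginine methyltransferase that is anchored to the cell membrane by a lipid on its N terminus. Slc35d3 encodes a protein of the nucleotide sugar transporter family that is needed for platelet dense granules and for the traffic of the D1 dopamine receptor in mice. Yap is the coactivator that the Hippo kinases restrain, and it reaches DNA through TEAD transcription factors.

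That the 5 genes were higher together is how they were picked, and shared control was not tested. The 250 bases before their transcription start were read for short motifs. RefSeq promoters (GRCm38.p6) were on hand for 4 of them, and Nptx2 was not among them. The motif that all 4 hold, the GC box bound by Sp-family factors (GGGCGG on either strand), is in capitals below. It was also present in 42.7% of the 17491 promoters of protein-coding genes read in the same way. Each sequence runs 5′ to 3′ on the strand of its gene, and they lie at chr19:3414545-3414794 (Gal, minus strand), chr5:137288004-137288253 (Ache, plus strand), chr6:127769160-127769409 (Prmt8, minus strand) and chr10:19851460-19851709 (Slc35d3, minus strand).
Gal: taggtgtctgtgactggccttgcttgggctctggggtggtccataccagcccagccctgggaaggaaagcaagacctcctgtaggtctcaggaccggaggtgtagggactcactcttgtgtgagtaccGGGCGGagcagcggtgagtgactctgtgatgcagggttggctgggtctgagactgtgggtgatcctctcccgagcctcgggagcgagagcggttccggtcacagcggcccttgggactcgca
Ache: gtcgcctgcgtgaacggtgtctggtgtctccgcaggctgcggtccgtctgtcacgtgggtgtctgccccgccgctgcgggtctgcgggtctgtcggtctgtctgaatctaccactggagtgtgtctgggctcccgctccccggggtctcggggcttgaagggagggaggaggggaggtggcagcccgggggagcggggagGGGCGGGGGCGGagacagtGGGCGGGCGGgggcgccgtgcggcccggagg
Prmt8: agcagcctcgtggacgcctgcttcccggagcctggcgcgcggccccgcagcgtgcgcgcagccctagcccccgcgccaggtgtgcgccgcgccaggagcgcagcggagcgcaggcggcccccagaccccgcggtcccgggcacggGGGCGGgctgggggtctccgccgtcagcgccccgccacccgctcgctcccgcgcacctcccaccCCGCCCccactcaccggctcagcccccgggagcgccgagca
Slc35d3: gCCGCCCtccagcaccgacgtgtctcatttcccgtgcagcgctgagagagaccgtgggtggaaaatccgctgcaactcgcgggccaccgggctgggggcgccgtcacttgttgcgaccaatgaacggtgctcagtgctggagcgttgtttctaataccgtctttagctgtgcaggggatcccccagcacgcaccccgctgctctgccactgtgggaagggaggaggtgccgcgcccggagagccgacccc

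Ache held 4 GC boxes, partly overlapping and all in the last 50 bases before the start, whereas Prmt8 held 2 and Gal and Slc35d3 held 1 each. The core letters of a TEAD site (GGAATG, both strands) were in 0 of the 4 windows, against 11.6% of all these promoters, and say nothing of sites outside them. The core of a cyclic AMP response element (TGACG, both strands) was in the windows of Prmt8 and Slc35d3, against 20.2% of promoters. The left core of RE1, the element bound by the neuronal repressor REST (CAGCACC, both strands), was in the window of Slc35d3, against 5.61% of promoters, and its right core (GGACAG, both strands) was in 0 of 4, against 18.8%. The promoters of Prmt8, Ache and Slc35d3 were rich in CpG, with 37, 25 and 22 CpG pairs, while Gal had 11 and the median promoter 10. E-box letters (CANNTG) were in 3 of the 4 windows, against 62.7% of promoters. An AP-1 site (TGANTCA) and a TATA box (TATAAA, both strands for each) were in 0 of 4, against 6.18% and 12.4%. A GC box was the 1 motif of those searched that all 4 windows shared. G and C made up 62.4% (Gal), 73.6% (Ache), 81.6% (Prmt8) and 65.6% (Slc35d3) of the windows, against a median of 55.2% over promoters. Whether the GC boxes or the lack of a TEAD core set these windows apart from promoters of like composition was not tested.

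Gal, the neuropeptide gene, had the largest rise of the 5 in the intensities as deposited. Its intensity, the brightness of its probe set on a linear scale, was 227, 226 and 163 on the HET arrays and 801, 702 and 557 on the KO arrays. The groups lay far apart: the lowest KO array read 2.45 times the highest HET array. The means were 205 ± 37.0 (SD, n = 3) and 687 ± 122, a log2 change of 1.74 ± 0.16 (SE) or a 3.35-fold higher level in KO cells. HET 3 and KO 3 were the low arrays of their groups, and the log2 change was 1.58 without the first and 1.88 without the second. In RNA from a sorted population, a change in the share of cells that make an RNA and a change in RNA per cell cannot be told apart, here or for the other genes.

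Ache, the gene of the enzyme that clears acetylcholine, read 336, 415 and 321 on the HET arrays and 990, 859 and 716 on the KO arrays. The spread within the KO group was wide, from 716 to 990, yet its lowest array was still 1.73 times the highest HET array. The means were 357 ± 50.3 (SD, n = 3) and 855 ± 137, a 2.39-fold higher level (log2 change 1.26 ± 0.13 SE). Gal, Ache and Prmt8 varied more between replicates than most genes. The SD within groups was 0.27 for Gal and 0.22 for Ache on the log2 scale, above that of 99.4% of the 500 tested genes nearest to each in level. For Prmt8 it was 0.25, above that of 95% of the 500 genes nearest to it.

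Nptx2, the AMPA receptor clustering gene, was the steadier of the secreted products. It read 87.7, 109 and 98.2 on the HET arrays and 259, 251 and 231 on the KO arrays. The 3 KO values lay close together, with an SD of 14.5 around a mean of 247, and the HET mean was 98.4 ± 10.7 (n = 3). This was a measured ratio of 2.52 (log2 change 1.33 ± 0.09 SE).

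Prmt8, the membrane-bound methyltransferase gene, read 53.7, 69.8 and 62.0 on the HET arrays and 190, 206 and 139 on the KO arrays. KO 3 stood below the other KO arrays but was 1.99 times the highest HET array. The means were 61.8 ± 8.08 (SD, n = 3) and 178 ± 34.9, a measured ratio of 2.86 (log2 change 1.52 ± 0.15 SE). Slc35d3, the transporter family gene, read 85.8, 81.5 and 75.4 on the HET arrays and 226, 194 and 195 on the KO arrays. It was the tightest of the 5 within groups, with an SD of 0.11 on the log2 scale, means of 80.9 ± 5.22 and 205 ± 18.0, and a measured ratio of 2.53 (log2 change 1.34 ± 0.08 SE).

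**Figure D1:**
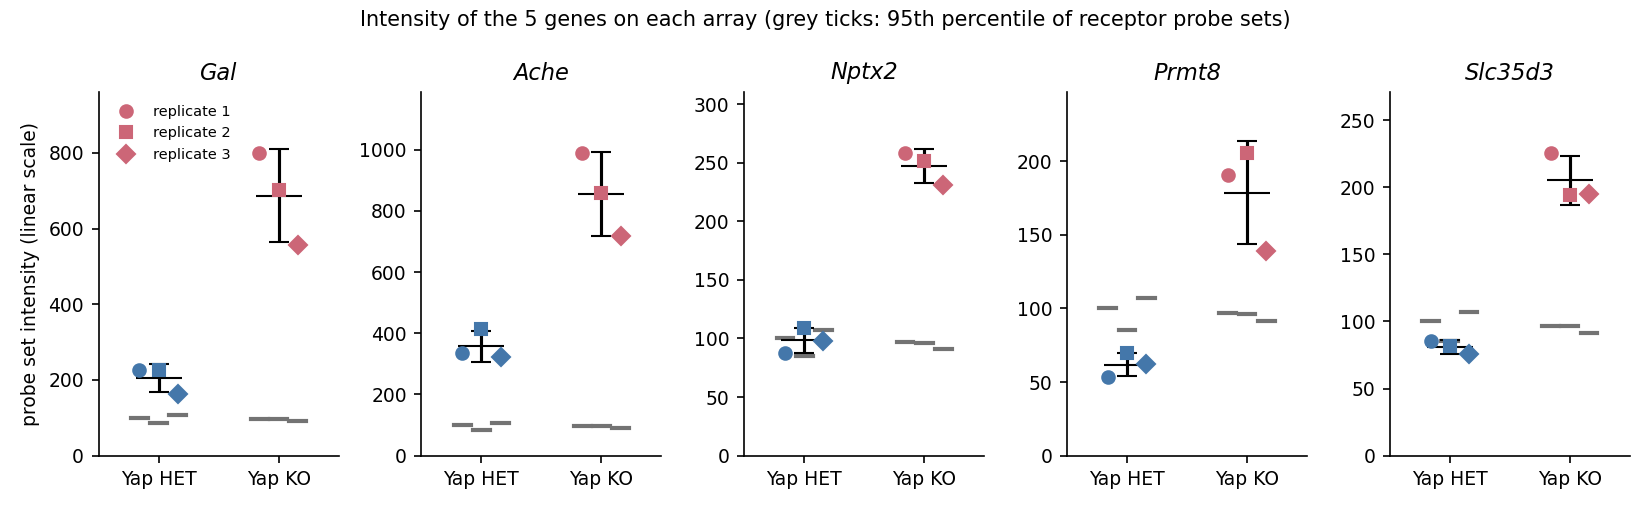
Intensity of the 5 genes on each array (vertical axis, linear scale from 0, separate for each gene). Points are arrays with the marker giving the replicate number, black bars are means with the SD of 3 arrays, and grey ticks mark the 95th percentile of receptor probe sets on the same array, from 85.4 to 107; the HET points of Prmt8 and Slc35d3 all lie below their ticks, and no KO point does.

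Whether a HET value could be told from background was judged from genes that heart cells are not known to express. The 1193 probe sets of odorant and vomeronasal receptors, the sensors of smell and pheromones in the nose, had a median intensity between 29.9 and 32.8 on the 6 arrays and a 95th percentile between 85.4 and 107. Gal and Ache lay above that percentile on every array, at 5.05 to 7.56 and 9.97 to 13.9 times the receptor median on the HET arrays. Nptx2 lay below the 95th percentile on 2 of the 3 HET arrays, all but HET 2. Prmt8 and Slc35d3 lay below it on all 3 HET arrays, at 1.74 to 2.33 and 2.34 to 2.78 times the receptor median. On the KO arrays all 5 were above it, from 4.49 times the receptor median for Prmt8 on KO 3 to 30.2 times for Ache on KO 1. Prmt8 and Slc35d3 also had HET means under 85.7, the level at which dim genes were left out of the test, and passed that filter through their KO values.

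For the dim genes the size of the rise therefore depended on how background was treated. With each HET array of Prmt8 and Slc35d3 raised to the 95th percentile of the receptors, the level in KO cells was at least 1.81-fold higher for Prmt8 and at least 2.11-fold higher for Slc35d3. With the 2 dim HET arrays of Nptx2 raised in the same way, its ratio was 2.34. With the receptor median subtracted from every array, Prmt8 had a ratio of 4.77, Slc35d3 of 3.47 and Nptx2 of 3.21. Gal and Ache moved less, to ratios of 3.77 and 2.52. With 32 added to every intensity the ratios were 3.02 for Gal, 2.27 for Ache, 2.14 for Nptx2, 2.23 for Prmt8 and 2.10 for Slc35d3. The order of the 5 by fold was therefore not fixed: Prmt8 stood above Gal with the receptor median subtracted and below Ache with 32 added.

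**Figure D2:**
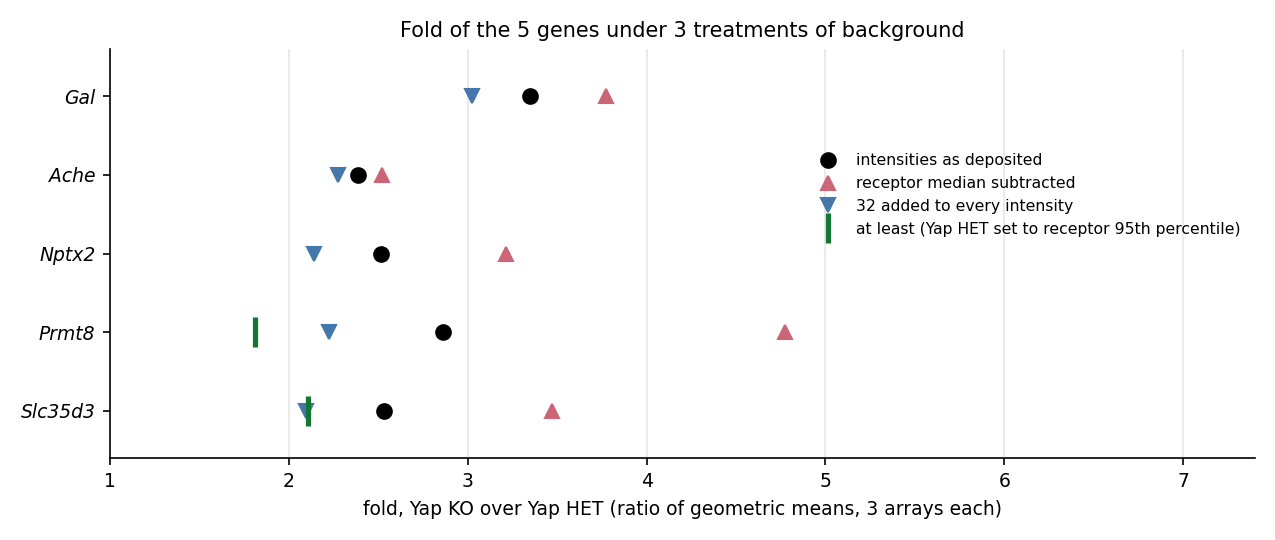
Ratio of KO to HET for each gene (horizontal axis, linear, from geometric means of 3 arrays each). Circles use the intensities as deposited, upward triangles the intensities less the receptor median, downward triangles the intensities plus 32, and green bars the lower bounds of Prmt8 and Slc35d3; Prmt8 spans the widest range, from 1.81 to 4.77, and Ache the narrowest, from 2.27 to 2.52.

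Among all genes ranked by log2 change the 5 stood at places 3 (Gal), 4 (Prmt8), 6 (Slc35d3), 7 (Nptx2) and 9 (Ache) of 13632. These places use the intensities as deposited. Those of Prmt8 and Slc35d3 rest on HET values not above background, and that of Nptx2 on HET values of which 2 of 3 were not. At its bound of 1.81-fold, given above, Prmt8 would not be among the 17 genes measured at least 2-fold higher. Places 1 and 2 were held by the embryonic globin genes Hbb-y (2.89 ± 1.14 SE) and Hba-x (1.99 ± 0.89), which varied widely within groups (limma adjusted p = 0.145 and 0.189, past no threshold). Rxrg and Has2 held places 5 and 8. In all, 1353 of 13632 genes passed the limma test at an adjusted p under 0.05 (9.93%), 704 of them higher in KO cells (5.16%) and 649 lower (4.76%). All KO values lay above all HET values for 5 of 5 of these genes and for 16.7% of the genes tested. Since the 5 were chosen from this contrast, nothing is read from that count. Yap1 itself read 886, 927 and 871 on the HET arrays and 103, 84.7 and 86.6 on the KO arrays, in the direction of the labels.

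Within the KO group the 5 genes shared most of their order over the arrays. KO 3 gave the lowest KO value for 4 of the 5, all but Slc35d3, for which KO 2 was lowest by a small margin. KO 1 gave the highest value for 4 of the 5, all but Prmt8. Among the other 699 genes that rose, KO 3 was the lowest KO array for 47.6% and KO 1 the highest for 32.8%. In the HET group, HET 2 was highest for Ache, Nptx2 and Prmt8, and HET 3 lowest for Gal, Ache and Slc35d3. Among the other genes that rose those shares were 60.9% and 63.8%.

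Genes with the most similar pattern were found by the root mean square difference over the 6 arrays, on log2 intensities less each gene's HET mean. This measure mostly reflects the size of the rise, which chose the 5 genes, so it is a description. Has2, which encodes the enzyme that makes the hyaluronan of the cardiac jelly, was among the 3 nearest genes of 4 of the 5, at 0.11 from Slc35d3 and from Nptx2, 0.27 from Prmt8 and 0.39 from Gal. Rxrg, a retinoid X receptor gene, was among the nearest of Prmt8 (0.13), Nptx2 (0.12) and Gal (0.38). Pla2g7, a phospholipase gene, was among those of Ache (0.17), Nptx2 (0.19) and Slc35d3 (0.19). The remaining places went to Lmo2, a LIM domain regulator gene (0.16 from Ache and 0.32 from Prmt8), Mgarp (0.17 from Ache), the phosphodiesterase gene Pde1a (0.16 from Slc35d3) and the class II histocompatibility gene H2-Ab1 (0.46 from Gal). Between the 5 genes themselves the 10 differences ran from 0.13, between Ache and Nptx2, to 0.37, between Gal and Ache. Has2 read 212, 219 and 209 on the HET arrays and 512, 518 and 536 on the KO arrays, so that, unlike 4 of the 5 genes, it was not low on KO 3.

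**Figure D3:**
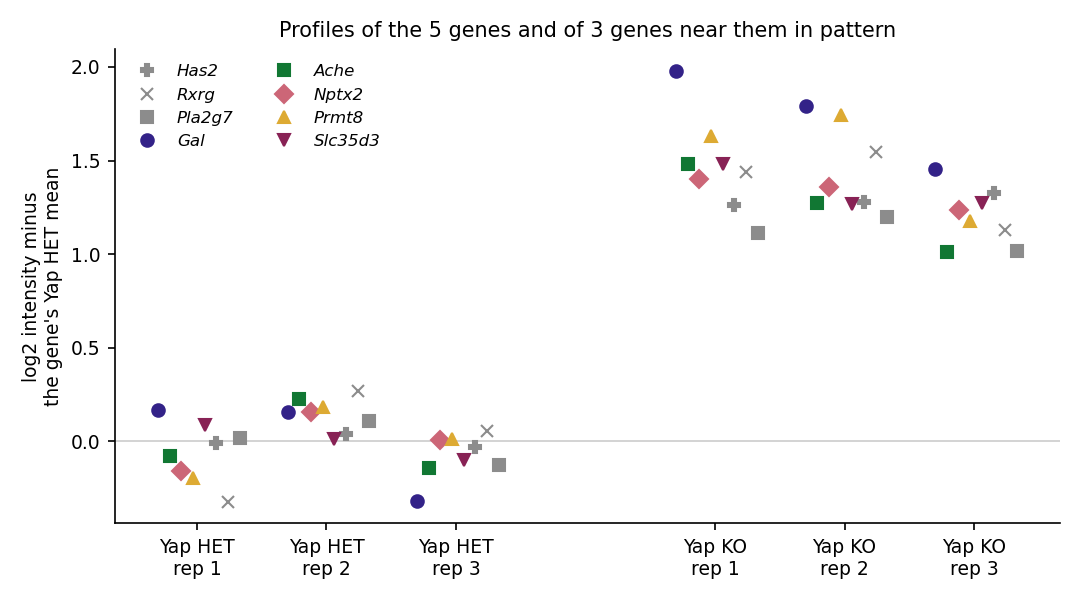
Log2 intensity less the gene's own HET mean (vertical axis) on each of the 6 arrays (horizontal axis) for the 5 genes (coloured markers) and for Has2, Rxrg and Pla2g7 (grey markers). Gal is the highest marker in all 3 KO columns, and Gal, Ache, Nptx2 and Prmt8 are at their lowest KO value on KO 3, where Has2 is at its highest.

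The galanin receptors did not pass the test or were too dim for it. The receptor genes Galr1 and Galr2 lay below the receptor-based background limit on all 6 arrays, with means of 27.9 ± 2.88 (SD, n = 3) and 70.0 ± 3.84 in HET and 27.0 ± 3.85 and 69.3 ± 3.34 in KO cells. Galr3 was above that limit and showed a log2 difference of -0.02 ± 0.09 (SE; limma adjusted p = 0.93). Of 16 tested genes for other neuropeptides, galanin receptors and peptide processing, 1 rose and 0 fell (6.25% against 9.93% of all genes), with 5 higher and 0 lower before adjustment (limma p under 0.05). The share of all genes at that unadjusted threshold was not counted, so nothing is read from counts before adjustment, here or below. Cpe, which encodes the carboxypeptidase that trims peptide precursors, rose by 0.40 ± 0.06 (limma adjusted p = 0.0081) and passed without any single array. Pam, the gene of the enzyme that amidates peptides such as galanin, showed a log2 difference of 0.14 ± 0.05 (limma adjusted p = 0.106). The neuropeptide genes Cck and Npy had log2 changes of 0.80 ± 0.22 and 0.24 ± 0.08 (limma adjusted p = 0.060 and 0.088). Cck read 314, 288 and 170 in HET and 465, 475 and 368 in KO cells, lowest on HET 3 and KO 3 within the groups, as Gal was. These arrays were also the lowest of their groups for 63.8% and 47.6% of the 699 genes that rose besides the 5. The median log2 change of these 16 genes was 0.02, beside -0.02 over all genes tested.

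Around Ache, 2 further genes of acetylcholine signalling rose and 3 fell. Chrm2, which encodes the M2 muscarinic receptor, the main acetylcholine receptor of heart muscle, read 1244, 1285 and 1198 on the HET arrays and 1901, 1820 and 1863 on the KO arrays. The level rose (log2 change 0.58 ± 0.05 SE, limma adjusted p = 0.0015) and passed without any single array. Bche, the gene of butyrylcholinesterase, the paralog of acetylcholinesterase, rose from 1373 ± 49.0 to 1605 ± 79.0 (log2 change 0.22 ± 0.06, limma adjusted p = 0.049), a call that held in 1 of the 6 fits that left out an array. The genes that fell serve the muscle side of the nerve-muscle synapse: Rapsn, which anchors nicotinic receptors (-0.58 ± 0.12), Lrp4, the agrin receptor gene (-0.39 ± 0.07), and Chrnb1, a nicotinic receptor subunit gene (-0.36 ± 0.06), with limma adjusted p-values of 0.028, 0.020 and 0.011. Prima1 and Colq, which encode the anchors of acetylcholinesterase at the cell surface and in the matrix, had log2 changes of 0.02 ± 0.06 and -0.10 ± 0.06 (limma adjusted p = 0.86 and 0.33). Chrng (0.20 ± 0.06), Dok7 (-0.15 ± 0.05) and Chrna7 (-0.19 ± 0.07) did not pass. Chat, the gene of the enzyme that makes acetylcholine, lay below the background limit on all 6 arrays. Over the 20 tested genes of this list the 5 calls were 25.0%, against 9.93% of all genes, and the median log2 change was -0.03. The list had 1 rise without any array except KO 1, and 0 falls without HET 1 and 1 without KO 2 or KO 3. Rapsn passed only without KO 1, and Lrp4 was lost without HET 1, KO 2 or KO 3 and Chrnb1 without HET 1.

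The closest paralogs of Nptx2, Prmt8 and Slc35d3 did not pass the test. Nptx1, the other secreted neuronal pentraxin, had 151 ± 11.5 (SD, n = 3) in HET and 142 ± 5.90 in KO cells (log2 change -0.09 ± 0.07 SE, limma adjusted p = 0.43). Of 10 tested genes of pentraxins and AMPA receptors, Cnih2, an AMPA receptor chaperone gene, rose by 0.28 ± 0.06 (limma adjusted p = 0.031) and 0 fell, with 1 lower before adjustment (limma p under 0.05). Cnih2 passed only without HET 2 or KO 1, and the list had 0 rises without HET 1, HET 3 or KO 2. Gsg1l (0.25 ± 0.07), Gria1 (-0.19 ± 0.08) and Cacng2 (-0.10 ± 0.07) did not pass. The share called was 10%, against 9.93% of all genes, and the median log2 change was -0.06.

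Prmt1, the closest paralog of Prmt8 and the main arginine methyltransferase of most cells, had 1582 ± 61.3 in HET and 1535 ± 15.01 in KO cells (log2 change -0.04 ± 0.05 SE, limma adjusted p = 0.62). Of 13 tested genes of arginine methyltransferases and their cofactors, 0 rose and 0 fell with limma, against 9.93% of all genes. Before adjustment 5 were lower and 0 higher (limma p under 0.05), without a share of all genes to set beside them. The nearest to the threshold were the cofactor gene Btg2 (-0.21 ± 0.05), Prmt7 (-0.22 ± 0.07) and Carm1 (-0.14 ± 0.05), all on the lower side. The genes of the 2 nearest relatives of Slc35d3, Slc35d1 and Slc35d2, had log2 changes of -0.14 ± 0.07 and -0.09 ± 0.09 (limma adjusted p = 0.24 and 0.53). Of 22 tested SLC35 transporter genes, 3 rose and 1 fell (18.2%, against 9.93%), with a median log2 change of -0.02. Slc35a1 (0.32 ± 0.07) and Slc35a3 (0.19 ± 0.05), which carry CMP-sialic acid and UDP-N-acetylglucosamine, and Slc35f5 (0.25 ± 0.06) rose, and Slc35g1 (-0.37 ± 0.05) fell. Slc35g2 (0.20 ± 0.08) and Slc35b4 (-0.18 ± 0.07) did not pass. Slc35a1 passed only without HET 2, Slc35f5 only without KO 3 and Slc35a3 in no fit that left out an array, so the list had 0 rises without HET 1, HET 3, KO 1 or KO 2, while the fall of Slc35g1 passed without any single array.

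**Figure D4:**
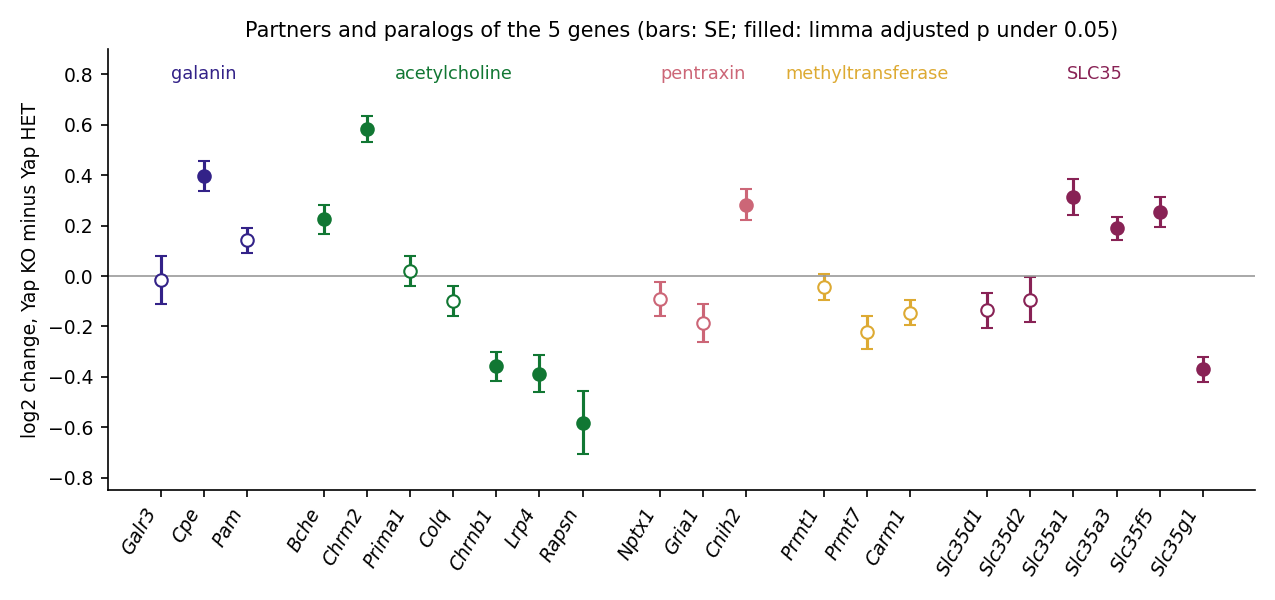
Log2 change of partners and paralogs of the 5 genes, KO minus HET (vertical axis), with SE bars and 1 colour per family; filled points passed the limma test at an adjusted p under 0.05 and open points did not. Chrm2 stands highest at 0.58 and Rapsn lowest at -0.58. The closest paralogs Nptx1, Prmt1, Slc35d1 and Slc35d2 are open points between -0.14 and -0.04, while Bche, the paralog of Ache, is a filled point at 0.22.

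General markers of nerve cells went both ways. Of 29 tested neuronal and synaptic genes, 2 rose and 2 fell (13.8%, against 9.93% of all genes), and the median log2 change was -0.02, the same as over all genes. Snap25, a gene of the synaptic vesicle fusion machinery, rose from 171 ± 34.2 (SD, n = 3) to 320 ± 36.1, a log2 change of 0.92 ± 0.14 (SE; limma adjusted p = 0.010) that passed without any single array. On the KO arrays it read 358, 316 and 286. Ntrk3, a neurotrophin receptor gene, rose by 0.33 ± 0.07 from a HET level under the background limit on 2 of 3 arrays, and the neurofilament gene Nefh (-0.30 ± 0.06) and Ddc, a gene of monoamine synthesis (-0.22 ± 0.06), fell. Ntrk3 passed only without KO 3, Ddc only without KO 1 and Nefh only without HET 2 or KO 1. The list had 1 rise without HET 1, HET 2, HET 3 or KO 2 and 0 falls without HET 1, HET 3, KO 2 or KO 3. Gap43 (-0.22 ± 0.08), Gata3 (0.23 ± 0.10) and Cplx2 (-0.14 ± 0.07) did not pass. The summed intensity of the 38 measured genes of this list was between 8545 and 8651 on the HET arrays and between 8520 and 8694 on the KO arrays, so the groups overlapped. This sum is led by its brightest genes, Ncam1 and Uchl1, and says little of the dimmer ones. Of these 38 genes, 20 lay above the background limit on all 6 arrays and 8 lay below it on all 6. Ncam1 (1854 ± 59.4 and 1873 ± 47.5), Uchl1 (1706 ± 77.9 and 1700 ± 135) and Tubb3 (371 ± 45.4 and 380 ± 26.2) were among the 20, with Syt1, Rbfox3 and Nefl. Stmn2 and the sympathetic neuron genes Th, Dbh and Phox2a were among the 8. Whether the 5 genes came from nerve cells was not tested.

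Markers of neural crest and Schwann cells gave 1 rise and 0 falls among 8 tested genes (1 of 8 called, against 9.93% of all genes, median -0.01), with 2 higher and 1 lower before adjustment (limma p under 0.05). The rise was in Fabp7, a fatty acid binding protein gene, which read 67.5, 82.0 and 79.6 in HET cells, all below the background limit, and 128, 110 and 146 in KO cells. This was at least 1.31-fold higher (limma adjusted p = 0.0094). The HET mean of Fabp7, 76.4, lay under the filter level of 85.7, so Fabp7 passed that filter through its KO values. Without HET 2 a second gene of the list passed. Ednrb (-0.24 ± 0.06), Erbb3 (0.20 ± 0.06) and Mbp (-0.10 ± 0.06) did not pass. Sox10, the defining factor of these lineages, had 164 ± 19.7 (SD, n = 3) in HET and 163 ± 5.95 in KO cells (limma adjusted p = 0.998). The summed intensity of the 12 measured genes was 1789 to 1972 in HET and 1806 to 1979 in KO cells.

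REST, the repressor that keeps many neuronal genes silent outside the nervous system, did not pass the test at the level of its mRNA. Rest had 973 ± 20.5 (SD, n = 3) in HET and 987 ± 45.3 in KO cells (log2 change 0.02 ± 0.05 SE, limma adjusted p = 0.85). Of 13 tested genes of REST and its corepressors, 0 rose and 1 fell (7.69%, against 9.93% of all genes, median -0.02), with 2 higher before adjustment (limma p under 0.05). The fall was in Ctdsp2, a phosphatase gene (-0.19 ± 0.05, limma adjusted p = 0.0496), and passed in no fit that left out an array. Rcor2 (0.17 ± 0.05), Hdac2 (0.12 ± 0.05) and Smarca4 (-0.12 ± 0.05) did not pass. Of 13 tested genes known as REST targets in heart or nerve cells, Gal left out, the natriuretic peptide genes Nppb (0.39 ± 0.08) and Nppa (0.19 ± 0.05) rose and 0 fell. The share called was 15.4%, against 9.93% of all genes, and the median was -0.02, with 1 lower before adjustment (limma p under 0.05). Both calls, of Nppb and Nppa, were lost without HET 1, HET 3, KO 1 or KO 2, and 1 was lost without HET 2 or KO 3. Acta1 (-0.24 ± 0.09), Cacna1h (0.09 ± 0.06) and Bdnf (-0.11 ± 0.09) did not pass.

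Some genes of the pacemaker and conduction system, a part of the heart with nerve input, rose. Of 27 tested, 7 rose and 1 fell (29.6%, against 9.93% of all genes), with 12 higher and 3 lower before adjustment (limma p under 0.05). This list, like the others, was chosen with earlier results of these data known, so its share is a description. The median log2 change was 0.11. Irx3 (0.63 ± 0.10), Tbx3 (0.47 ± 0.09) and Etv1 (0.47 ± 0.05), transcription factor genes of the conduction system, rose. Ntm, a cell adhesion gene (0.56 ± 0.06), Cacna2d2, a calcium channel subunit gene (0.40 ± 0.08), and Rgs6 (0.35 ± 0.06) and Kcnj5 (0.26 ± 0.07) rose too. Rgs6 and Kcnj5 act directly after the M2 receptor, the first as a brake on its G protein and the second as a subunit of the potassium channel that acetylcholine opens. Whether these rises are linked to those of the 5 genes was not tested. The partner subunit gene Kcnj3 showed a log2 difference of 0.23 ± 0.07 (limma adjusted p = 0.0695), and Isl1 (0.30 ± 0.10) and Cacna1d (0.16 ± 0.05) did not pass either. Cpne5 fell by 0.35 ± 0.07 on the log2 scale. Hcn4 (-0.04 ± 0.07), Hcn2 (-0.02 ± 0.08) and Shox2 (-0.01 ± 0.18) of this list did not pass. Tbx18 and Smoc2 were lower (-0.37 ± 0.14 each) and did not pass either. Irx3, Etv1 and Ntm passed without any single array. Tbx3 was lost without HET 1 or KO 3, Cacna2d2 and Rgs6 without HET 1 or KO 2, and Kcnj5 passed only without KO 3. Cpne5 passed only without HET 2 or KO 1. The list had 3 rises without HET 1 and 4 without KO 2, and 2 falls without KO 1 and 0 without HET 1, HET 3, KO 2 or KO 3. Of 20 genes that differ between heart chambers, Nppa and Nppb rose and Hey2 (-0.53 ± 0.10) and Nr2f1 (-0.29 ± 0.07), transcription factor genes, fell. The share called was 20.0%, against 9.93% of all genes, and the median log2 change was 0.01. Sln (0.28 ± 0.09), Bmp10 (0.23 ± 0.08) and Kcna5 (0.18 ± 0.10) did not pass. Nppb passed only without HET 2 or KO 3 and Nppa in no fit that left out an array, while the list had 0 rises without HET 1, HET 3, KO 1 or KO 2 and 1 without KO 3. Hey2 was lost without HET 1 or HET 3 and Nr2f1 passed in no such fit, so the list then had 0 falls or 1.

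The genes next to the 5 on their chromosomes were read in the same way. Among the 3 nearest annotated genes on each side, 30 in all, 10 were tested and 1 of them rose (10%, against 9.93% of all genes), 0 fell and 1 was lower before adjustment (limma p under 0.05). The rise was in Ufsp1, a protease gene that follows Ache, which read 365, 422 and 365 on the HET arrays and 658, 578 and 510 on the KO arrays. Its order of arrays within the KO group was that of Ache, highest on KO 1 and lowest on KO 3. Of the 699 genes that rose besides the 5, KO 1 was highest for 32.8% and KO 3 lowest for 47.6%. The log2 change of Ufsp1 was 0.60 ± 0.10 (SE; limma adjusted p = 0.013), and the call was lost without HET 1 or KO 2. Whether probes of 1 gene also bind RNA of the other was not tested. Srrt, the next gene after Ufsp1, showed a log2 difference of -0.04 ± 0.05, Cpt1a and Ppp6r3 around Gal 0.02 ± 0.07 and -0.004 ± 0.05, and Cracr2a beside Prmt8 -0.07 ± 0.06. Pex7 beside Slc35d3 (0.23 ± 0.07) and Tmem130 beside Nptx2 (-0.20 ± 0.07) did not pass. A second gene passed without HET 2. Counting protein-coding neighbours alone, a choice made after the data were seen, 3 of 23 rose and 1 fell (17.4%, against 9.93% of all genes). They were Ufsp1, Bri3 near Nptx2 (0.26 ± 0.06), Ifngr1 near Slc35d3 (0.23 ± 0.05) and, falling, Tead4 near Prmt8 (-0.62 ± 0.09), which encodes a DNA-binding partner of Yap. Bri3 and Ifngr1 passed only without HET 2, and Tead4 passed without any single array. The count of rises was 0 without HET 1 or KO 2 and 1 without HET 3 or KO 1.

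The sorted cells carried the markers of heart muscle in both groups, and some markers of other cell types rose in KO cells. All 18 cardiomyocyte genes were tested and 0 changed with limma, against 9.93% of all genes. Before adjustment 2 were lower (limma p under 0.05). The summed intensity of the 18 was between 120798 and 122875 in HET and between 119133 and 122372 in KO cells. Of 13 mesenchymal and valve genes, Pdgfra (0.98 ± 0.10), Pdgfrb (0.73 ± 0.08), Postn (0.72 ± 0.13) and Sox9 (0.39 ± 0.07) rose and 0 fell (30.8%, against 9.93% of all genes, median 0.32), with 0 lower before adjustment (limma p under 0.05). Their summed intensity was between 11971 and 12475 in HET cells and 13008, 13794 and 15258 on KO 1, KO 2 and KO 3. It was thus highest on KO 3. Of 12 endothelial and endocardial genes, Kdr (0.76 ± 0.05), Eng (0.52 ± 0.08), Nfatc1 (0.31 ± 0.08) and Ramp2 (0.35 ± 0.09) rose and Npr3 (-0.34 ± 0.06) fell (41.7%, against 9.93% of all genes, median 0.22), with sums of 2145 to 2253 and 2475 to 2692. Pecam1 and Cdh5, which define that lineage, did not pass (limma adjusted p = 0.36 and 0.076), and Pecam1 lay under the background limit on 3 HET and 2 KO arrays. Of 10 epicardial genes Tcf21 rose (0.93 ± 0.17) and 0 fell (10%, against 9.93% of all genes, median -0.26), with 4 lower before adjustment (limma p under 0.05). The sums were 4421 to 5299 in HET and 3440 to 4599 in KO cells. Of 8 macrophage and blood genes Lyz2 rose (0.47 ± 0.11) and 0 fell (1 of 8 called, against 9.93% of all genes, median -0.10), with 3 lower before adjustment (limma p under 0.05). Hbb-y of that list read 232, 27.1 and 19.8 on the HET arrays and 1295, 450 and 86.3 on the KO arrays, highest on KO 1, and the summed intensity of the list was 2036 to 2252 and 2117 to 3489. Of 6 smooth muscle genes 0 changed with limma, against 9.93% of all genes, with 1 higher and 1 lower before adjustment (limma p under 0.05). Of the cell type markers that rose or fell, Kdr, Eng, Pdgfra and Pdgfrb passed without any single array. Npr3 was lost without HET 1, Postn and Sox9 without KO 2, and Tcf21 without HET 1 or KO 3. Ramp2 passed only without HET 3 or KO 1, Nfatc1 only without KO 1 and Lyz2 only without HET 2. The part of other cells in the rise of the 5 genes was not tested.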

How the data were processed

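The deposited values are intensities of 35556 probe sets on 6 arrays, 3 Yap HET and 3 Yap KO. RMA is the tool named in the submitters' processing notes, and its usual output is on the log2 scale. The deposited intensities are linear (2e-05 to 15701), the step between is not stated, and log2 was taken before each fit. The median over all probe sets was between 128 and 140 on the 6 arrays. Of the probe sets, 21789 had 1 gene symbol, 1621 several and 12146 none. A RefSeq table (GRCm38.p6) gave current symbols by Entrez identifier for 21698. Each of the 5 genes had 1 probe set with no other gene on it. Where a gene had several probe sets, that with the highest mean was used, and genes whose mean lay under the 40th percentile over probe sets (85.7) were not tested.

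The test was limma 3.58.1 (lmFit, eBayes; R 4.3.3) with group as the only term, and p-values were adjusted by the Benjamini-Hochberg method over 13632 genes with a threshold of 0.05. The test was also run on simulated data with independent noise for each gene and no effect shared by an array. That run therefore says nothing of how the calls depend on single arrays. The genes, lists and background measure were chosen with earlier results of these data known. In each list the text names all genes that passed and up to 3 more with the smallest p, with fixed partners and paralogs, and the 5 genes are left out of list counts. Genes named outside this rule (globins, defining markers near background, uncalled neighbours, uncalled pacemaker genes) were chosen after their values were seen. Alternatives changed the filter, the probe set rule, the normalization, the variance prior, a replicate block, the background of the 5 genes and the arrays used. With 3 arrays a group, their number limits the precision. Replicates are described as biological, without stating which embryos they came from.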

Additional observations from a re-analysis of the deposited data

How the results depend on the processing

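For the 5 genes no alternative that was run turned the direction. Leaving out 1 array gave log2 changes from 1.58 to 1.88 for Gal, 1.14 to 1.38 for Ache, 1.25 to 1.41 for Nptx2, 1.40 to 1.69 for Prmt8 and 1.27 to 1.38 for Slc35d3. With the receptor median subtracted they were 1.68 for Nptx2, 2.25 for Prmt8 and 1.79 for Slc35d3, and with 32 added 1.10, 1.15 and 1.07. Quantile normalization, median centring and the mean of probe sets moved none of the 5 by more than the SD within groups.

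The count over protein-coding neighbours was chosen after seeing the data. Counts of called genes depended more on the setting, and the cause was not tested beyond the number of genes or arrays that a setting uses. Without a filter 271 genes rose and 237 fell. The rises then were 1 cholinergic, 0 pentraxin, 0 SLC35, 1 neuronal, 2 neural crest, 0 REST target, 4 pacemaker, 0 chamber and 1 protein-coding neighbour gene, and the falls 1 cholinergic, 0 neuronal, 0 REST repressor, 0 pacemaker and 0 chamber genes. With the 60th percentile filter 2 neuropeptide, 1 neuronal, 1 REST repressor and 2 neighbouring genes rose, and 2 methyltransferase, 1 neuronal, 1 neural crest and 0 protein-coding neighbour genes fell. With quantile normalization 3 neuropeptide, 2 neural crest, 1 REST repressor, 2 neighbouring and 5 protein-coding neighbour genes rose, and 2 methyltransferase and 1 chamber gene fell. With median centring 1055 genes rose and 339 fell in all, against 704 and 649 as deposited. The rises were 3 neuropeptide, 2 pentraxin, 2 neural crest, 1 REST repressor, 4 chamber, 2 neighbouring and 5 protein-coding neighbour genes, and the falls 1 neuronal, 0 REST repressor and 1 chamber gene. With a trended and robust prior 1189 rose and 1057 fell, with 2 neuropeptide, 2 pentraxin, 2 REST repressor and 11 pacemaker genes rising and 4 methyltransferase, 1 neural crest and 2 protein-coding neighbour genes falling.

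Deviations from group means of same-numbered arrays had correlations of -0.0765, -0.171 and 0.124 across genes, so the numbers were not taken to pair the arrays. With the replicate number as a block 395 genes rose and 303 fell. The rises under this block were 1 cholinergic, 2 neuropeptide, 0 pentraxin, 1 SLC35, 1 REST target, 1 chamber and 1 protein-coding neighbour gene, and the falls 0 neuronal, 0 REST repressor, 0 pacemaker and 1 chamber gene. Leaving out 1 array gave 214 to 783 rises and 206 to 597 falls. The ranges of rises were 1 to 2 for cholinergic, neuronal and neural crest genes, 0 to 1 for pentraxin, SLC35 and REST target genes, 3 to 7 for pacemaker genes, 0 to 2 for chamber and neighbouring genes and 0 to 4 for protein-coding neighbours. The ranges of falls were 0 to 3 for cholinergic genes, 0 to 2 for neuronal and pacemaker genes, 0 for REST repressor genes and 0 to 1 for chamber genes.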
